A study of Bos taurus with 19 samples.

Results

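The theca interna of 5 small healthy bovine follicles whose basally-situated granulosa cells were rounded was compared with that of 5 small healthy follicles in which these cells were columnar. These 10 arrays were chosen by their sample titles from the 19 arrays of the series, and the comparison was made over every probe set whose log2 signal exceeded 3 in 3 or more of the 5 arrays of either group, the control probe sets of the array left out. This gave 15106 of 24127 probe sets. The 439 probe sets that just passed, with 3 arrays over the limit in their better group, had a median level of 3.06 in both groups, and the 473 that just missed it, with 2 arrays, had one of 2.92 in rounded and 2.96 in columnar follicles. A probe set is a group of short probes on the array that read out 1 transcript, and a log2 difference of 1 is a 2-fold difference in signal.

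The theca interna lies outside the follicular basal lamina, a sheet of type IV collagen, laminins, nidogens and perlecan that separates it from the avascular granulosa layer. Its steroidogenic cells turn cholesterol into androgens, which the granulosa cells convert to estradiol, and its capillaries supply the whole follicle. Small antral follicles come in 2 forms. In one the basal lamina is a single aligned layer and the granulosa cells upon it are rounded, and in the other the basal lamina is thrown into loops and the cells are columnar. The comparison asks whether the thecal layer on the outer side of the lamina differs between the follicles of these forms.

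Both groups were follicles of 3 to 5 mm from non-pregnant Bos taurus heifers, untreated, with the granulosa cells scraped off before the theca interna was dissected. According to the sample records, RNA was extracted with the same RNeasy mini kit in both groups and 2 to 5 µg were labelled, whereas the study's methods describe Trizol before the RNeasy column and a smaller amount of RNA for labelling. There were also 4 large healthy follicles over 9 mm, whose arrays shared the estimate of the spread behind each SE, interval and p, and whose levels are given for single genes. For 5 small atretic follicles of 3 to 5 mm, for which another RNA kit and 0.25 µg were used, levels alone are given. The ages of the animals are not given in the sources used here. It is also not stated whether each follicle came from its own animal, so the p-values measure the spread between these arrays only. The theca of a whole follicle is a mixture of cells, and fewer cells of a type cannot be told apart from less RNA per cell.

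Both groups carried the RNA of androgen-producing theca cells at overlapping levels, which were high for INSL3 but not for every marker. LHCGR, the receptor for LH, was near the log2 limit of 3, at 3.2 to 4.1 in rounded and 2.8 to 4.3 in columnar follicles. INSL3, the hormone by which these cells are recognised, had a log2 signal of 12.4, 11.7, 11.9, 12.2 and 11.8 in rounded and of 12.2, 11.7, 11.9, 12.3 and 11.9 in columnar follicles, with a difference of 0.00 and a 95% interval of -0.35 to 0.35. GAPDH, a glycolytic enzyme used as a reference, differed by 0.08 ± 0.10 (SE), and PPIA, a prolyl isomerase used in the same way, by 0.04 ± 0.14 (SE). Of 9 measures of the arrays themselves, 0 had an adjusted p under 0.05 by exact permutation tests over the 252 ways of splitting 10 arrays into 5 and 5. The measure nearest to a difference was the number of probe sets over log2 3, which averaged 14769 in rounded (SD 63, n = 5) and 14845 in columnar follicles (SD 34, n = 5; exact two-sided p = 0.0397, adjusted p = 0.357). Red blood cells left 0 of 7 listed genes on the array among the tested probe sets.

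No probe set was called different between the theca of rounded and columnar follicles. With limma, a linear model with a moderated variance, 0 of 15106 probe sets (0%) had an adjusted p under 0.05, and the smallest adjusted p was 0.995, which is therefore the lowest adjusted p of any gene named below. At an unadjusted p under 0.05 there were 352, of which 261 (1.73% of those tested) were lower and 91 (0.602%) higher in columnar follicles. Without any difference, a fraction of about 0.05 of the tested probe sets would pass this limit. Both shares together were below that, so the count is not by itself a sign of a difference. The split into lower and higher depended on the settings. It turned to 359 lower and 722 higher with no filter on low signals, was 177 lower and 144 higher after a second quantile normalization of the 10 arrays, and was 1059 lower and 452 higher with array quality weights. The linear model over the 3 healthy groups without moderation, which is the kind of test the study names, gave 265 lower and 143 higher at an unadjusted p under 0.05, and 0 after adjustment. The count also moved when single arrays were left out. It was 632 lower and 209 higher without rounded replicate 5, where the smallest adjusted p was 0.203, 546 and 193 without columnar replicate 4, 127 and 41 without rounded replicate 1, and 158 and 62 without columnar replicate 5.

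The median half-width of the 95% interval was 0.29 on the log2 scale. The interval excluded a 2-fold difference in either direction for 95.7% of the probe sets, and a 1.5-fold difference for 80.3%. The median difference was -0.02, with 54.1% of probe sets lower, 39.4% higher and 6.5% equal in columnar follicles. These are intervals of single probe sets and do not bound the largest difference among 15106.

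Although none passed the test, the larger differences lay on one side. A difference of at least 2-fold was found for 28 probe sets, of which 27 (0.179%) were lower and 1 (0.00662%) higher in columnar follicles. When a signal over log2 3 was required on all 10 arrays, 8 were left, all 8 lower. A difference of at least 1.5-fold was found for 107 lower and 13 higher. In 23 of the 27 every columnar array was below the mean of the rounded arrays, and in 11 of the 27 the columnar mean was under the log2 signal of 3 used as the detection limit, so that these folds compare a signal with one at the foot of the scale. Many of the 27, among them CDH2, PHF3, RBM24, RPRM and RBM5, passed the detection rule through the rounded arrays alone. That is the group in which they were higher, so their entry depended on the higher level. Of all 15106 tested probe sets, 263 passed through rounded alone and 345 through columnar alone. In 16 of the 27 rounded replicate 5 was the lowest of the rounded arrays. The 27 were chosen for a columnar mean at least 2-fold lower, so the count of 23 follows largely from that choice. The counts of 23 and 16 have no share over all probe sets beside them. The 27 probe sets have 20 named genes among them, which are described next by their function.

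**Figure D1:**
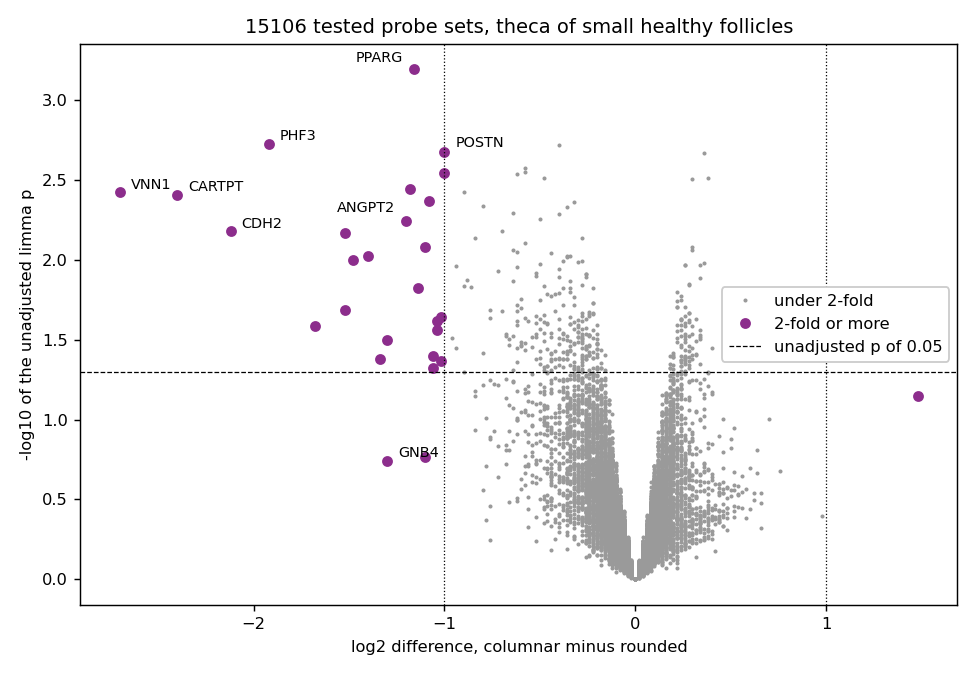
The log2 difference between columnar and rounded follicles (x axis) against -log10 of the unadjusted limma p (y axis) for 15106 probe sets, with dotted lines at 2-fold and a dashed line at the unadjusted threshold. Of the 28 probe sets at 2-fold or more, drawn as large dots, 27 are on the left, lower in columnar, and 1 is on the right.

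The largest difference was in VNN1, vanin 1, a membrane-bound pantetheinase that releases cysteamine and pantothenic acid. Its log2 signal was 8.4, 4.9, 7.4, 5.7 and 5.0 in rounded replicates 1 to 5 and 3.2, 4.0, 4.1, 4.2 and 2.4 in columnar replicates 1 to 5. The lowest rounded array was above the highest columnar array, and the rounded arrays were spread over more than 3 log2 units. The means were 6.28 ± 1.55 (SD, n = 5) and 3.58 ± 0.77 (SD, n = 5), a 6.5-fold lower signal in columnar follicles (log2 difference -2.70 ± 0.78 SE, 95% interval -4.37 to -1.03). A second probe set of VNN1 gave 5.0, 3.2, 4.4, 3.6 and 2.9 in rounded and 2.1, 2.6, 2.7, 2.7 and 1.4 in columnar follicles, again without overlap, with a difference of -1.52. On this probe set every columnar array and rounded replicate 5 were under the detection limit. It was thus tested through the rounded arrays alone, and it is itself among the 27. In the other groups the first probe set of VNN1 was at 4.1 to 8.3 in the large healthy and 6.1 to 8.3 in the small atretic follicles. Large replicate 2, at 4.1, lay within the columnar range, and it did so on the second probe set too, at 2.4.

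CARTPT and CDH2 followed, and both are known from granulosa cells. CARTPT is the precursor of the CART peptide, which in cattle is made in granulosa cells and dampens their estradiol production. Its log2 signal was 7.2, 5.0, 6.2, 7.6 and 3.0 in rounded and 3.3, 3.6, 3.1, 3.9 and 3.1 in columnar follicles. In 4 rounded follicles it was above every columnar follicle, and rounded replicate 5 was below all of them. The difference was -2.40 ± 0.70 (SE; 95% interval -3.89 to -0.91), and without rounded replicate 5 it was -3.10. CDH2, N-cadherin, joins granulosa cells to one another. It was 7.2, 5.9, 6.3, 6.0 and 3.2 in rounded and 4.9, 4.9, 3.0, 2.9 and 2.3 in columnar follicles. The same 4 rounded follicles were above every columnar one, with a difference of -2.12 ± 0.67 (SE; 95% interval -3.55 to -0.69). Large healthy follicles had 2.6 to 4.7 for CARTPT and 3.8 to 4.9 for CDH2.

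As a list, the markers of granulosa cells overlapped between the groups. Of 16 listed genes on the array 11 were tested, of which 7 were lower and 4 higher in columnar follicles, with a median difference of -0.16 against -0.02 over all probe sets. The mean level of the 11 genes per array was 7.65, 7.24, 7.25, 7.51 and 6.75 in rounded and 7.60, 7.05, 6.71, 6.81 and 6.66 in columnar follicles. The array with the lowest CARTPT and CDH2 among the rounded ones, replicate 5, also had the lowest granulosa mean of that group, and columnar replicate 1 had the highest of its group. CDH2 is itself 1 of the 11 genes, so its values are part of these means, and the 2 are not independent. CYP19A1 and FSHR, the aromatase and the FSH receptor that define granulosa cells, were not detected by the rule in either group: the best probe set of CYP19A1 reached at most 2.3 in rounded and 3.9 in columnar follicles, and FSHR at most 2.7 and 2.1. INHBA, an activin and inhibin subunit, was at 6.3 to 7.7 in rounded and 6.8 to 9.1 in columnar follicles (difference 0.34 ± 0.59 SE). FST, its binding protein follistatin, was at 8.5 to 9.0 in rounded and 8.1 to 9.6 in columnar follicles (difference -0.32 ± 0.40 SE). The highest values of INHBA, FST and CYP19A1 were all in columnar replicate 1. GATM, which makes the creatine precursor, differed by -0.58 ± 0.32 (SE). The part of remaining granulosa cells in the values of CARTPT and CDH2 was not tested.

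Genes of the vessels and of vascular tone were among the 2-fold differences. ANGPT2, angiopoietin 2, a ligand of the endothelial receptor TEK that loosens vessels for remodelling, was 7.5, 5.4, 6.4, 5.8 and 5.4 in rounded and 4.5, 5.0, 4.8, 5.4 and 4.8 in columnar follicles. The groups met only at 5.4, which was the lowest rounded and the highest columnar value. The difference was -1.20 ± 0.37 (SE; 95% interval -1.99 to -0.41), and large healthy follicles were at 6.1 to 7.4 and atretic ones at 6.7 to 7.2. ADM, adrenomedullin, a vasodilator peptide, was 9.6, 7.5, 9.0, 7.5 and 7.5 in rounded and 6.9, 7.0, 7.0, 7.8 and 7.3 in columnar follicles. Its difference of -1.02 ± 0.46 (SE; 95% interval -2.00 to -0.04) rested on rounded replicates 1 and 3, since the other 3, all at 7.5, lay below columnar replicate 4. EGLN1, an oxygen-sensing prolyl hydroxylase, was 5.6, 4.5, 5.1, 4.4 and 4.5 in rounded and 4.3, 4.3, 4.2, 4.3 and 3.8 in columnar follicles, without overlap (difference -0.64 ± 0.23 SE). Its 2 other probe sets differed by -0.40 and -0.52.

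As lists, the vessel genes lay closer to 0. Of 16 tested genes of vessel growth and tone, 2 were 2-fold lower, namely ANGPT2 and ADM, and the median difference was -0.06. VEGFA, the main growth factor of the capillaries, differed by -0.20, and HIF1A, the subunit of the hypoxia factor that EGLN1 modifies, by -0.16. The 15 tested endothelial genes had a median difference of -0.12, with 10 lower and 4 higher and a range of -0.36 to 0.22. TEK itself differed by -0.12 and PECAM1, a pan-endothelial adhesion molecule, by 0.22. NOS3, the endothelial nitric oxide synthase, differed by -0.28 ± 0.13 (SE; 95% interval -0.55 to -0.01). For all 15 endothelial genes the 95% interval excluded a 2-fold difference. Smooth muscle and pericyte genes had a median of -0.06 over 12 genes and a range of -0.24 to 0.16.

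PPARG had the smallest p of all probe sets. It encodes a nuclear receptor that controls lipid storage and is present in ovarian cells. Its log2 signal was 4.8, 4.2, 4.2, 4.6 and 3.4 in rounded and 3.8, 3.1, 2.7, 3.1 and 2.7 in columnar follicles. Only rounded replicate 5 lay below columnar replicate 1, the highest of its group. The difference was -1.16 ± 0.27 (SE; 95% interval -1.73 to -0.59). In large healthy follicles PPARG was at 3.6 to 4.5, within the rounded range.

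UPK1B, uroplakin 1B, a tetraspanin best known from the urothelium, showed the same split within the rounded group more sharply. It was 6.3, 6.0, 6.0, 6.0 and 3.5 in rounded and 4.8, 4.6, 3.9, 3.6 and 3.9 in columnar follicles. In 4 rounded follicles it was more than 1 log2 unit above the highest columnar one, whereas rounded replicate 5 was below every columnar follicle. The difference was -1.40 ± 0.47 (SE; 95% interval -2.40 to -0.40), and -1.92 without rounded replicate 5. SRGN, serglycin, a proteoglycan of secretory granules, was 9.7, 10, 9.6, 9.9 and 8.7 in rounded and 9.7, 9.1, 7.8, 8.0 and 7.8 in columnar follicles. Its columnar arrays 1 and 2 lay among the rounded ones, as did rounded replicate 5 among the columnar.

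**Figure D2:**
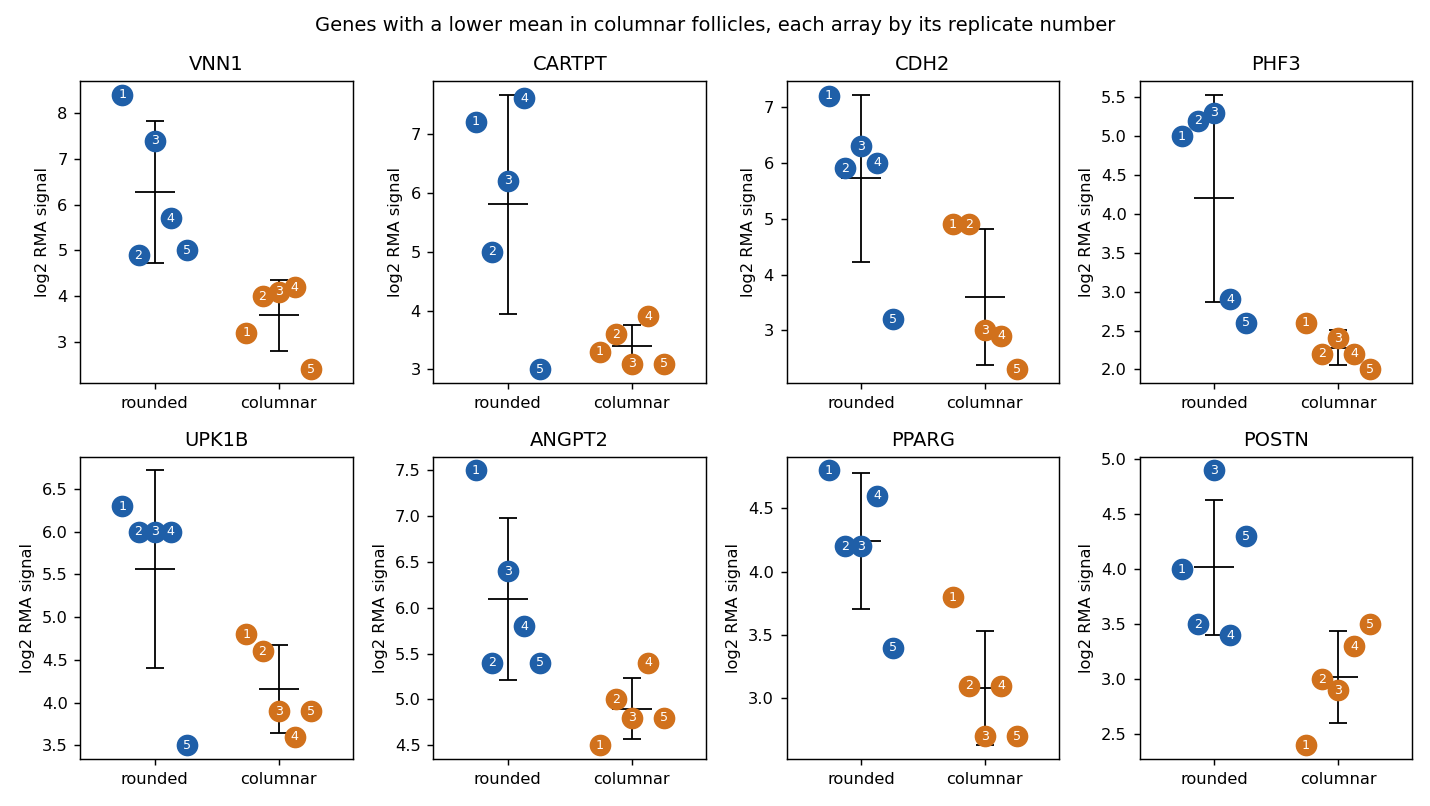
Log2 RMA signal (y axis) of 8 genes in each array, numbered by replicate, with the mean and SD of the 5 rounded (left) and 5 columnar (right) follicles as bars. VNN1 does not overlap between the groups, and for CARTPT, CDH2, UPK1B and PPARG rounded replicate 5 lies among or below the columnar arrays while rounded replicates 1 to 4 lie above them.

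For 3 regulators of chromatin and RNA the high values were in rounded replicates 1 to 3. PHF3, which binds RNA polymerase II, was 5.0, 5.2, 5.3, 2.9 and 2.6 in rounded and 2.6, 2.2, 2.4, 2.2 and 2.0 in columnar follicles (difference -1.92 ± 0.50 SE, 95% interval -3.0 to -0.84). CHD1, a chromatin remodeller, was 5.6, 5.7, 5.5, 3.9 and 4.2 in rounded and 3.8, 3.1, 3.7, 3.4 and 3.5 in columnar follicles, without overlap. RBM5, a splicing regulator, was 4.7, 4.2, 4.5, 2.5 and 2.3 in rounded and 2.6, 2.2, 2.7, 2.9 and 2.5 in columnar follicles. For PHF3 and RBM5 every columnar array and rounded replicates 4 and 5 were under the detection limit of log2 3. The other tested probe sets of the 3 genes differed by less. The second probe set of PHF3 was 5.9, 5.9, 6.0, 5.4 and 5.2 in rounded and 5.1 to 5.5 in columnar follicles, a difference of -0.46. Those of RBM5 differed by -0.62 and -0.06. That of CHD1 differed by -0.06, at a log2 signal of 6.7, 6.7, 6.9, 6.9 and 6.7 in rounded follicles. The poly-A controls, RNAs added at labelling, had mean log2 signals of 4.85, 4.88, 4.78, 4.20 and 4.49 in rounded replicates 1 to 5 and 4.31 to 4.68 in columnar follicles, so that they too were highest in rounded replicates 1 to 3. Their part in these probe sets was not tested.

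The remaining named genes with a 2-fold lower mean were a mixed group. RBM24, an RNA-binding splicing factor, was 5.5, 2.9, 4.1, 3.9 and 1.4 in rounded and 1.9 to 2.2 in columnar follicles. RPRM, reprimo, which holds cells before mitosis, was 4.6, 2.8, 4.2, 3.5 and 2.3 in rounded and 2.2 to 2.5 in columnar follicles. In both genes the columnar arrays lay together below the detection limit and rounded replicates 1, 3 and 4 lay above it. GNB4, a G protein beta subunit, took values near 6.5 or near 2.6 in columnar follicles (2.6, 6.5, 2.6, 6.5 and 2.5), and 3.2, 4.1, 6.8, 6.5 and 6.6 in rounded ones. High and low arrays of GNB4 thus occurred in both groups, and its interval of -3.28 to 0.68 included 0. The means of GPNMB, a glycoprotein of macrophages and pigment cells, differed by -1.10 within a wide spread (SD of 1.52 and 1.03). CLGN, a chaperone of the endoplasmic reticulum, differed by -1.08, HOPX, a homeodomain protein that does not bind DNA, by -1.06, NMB, the peptide neuromedin B, by -1.04 and TRIM2, a ubiquitin ligase, by -1.02.

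The 27 probe sets were also set beside the groups that took no part in their choice. The large healthy mean was above the columnar mean for 26 of the 27, against 49.9% of all tested probe sets, and the small atretic mean for 27 of the 27, against 50.3%. Since the 27 were chosen for a low columnar mean, these counts are a description and were not tested. The SD was smaller in columnar than in rounded follicles for 22 of the 27, against 62.2% of all probe sets. The 27 were chosen from these same arrays, and in 11 of them the columnar mean was under the detection limit. The count of SDs is therefore also a description and was not tested.

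Of 22 tested genes of fibroblasts and fibrillar matrix, POSTN and TNC had the largest differences, and neither passed the test. POSTN, periostin, a matricellular protein that binds integrins and collagen, was 4.0, 3.5, 4.9, 3.4 and 4.3 in rounded and 2.4, 3.0, 2.9, 3.3 and 3.5 in columnar follicles. Columnar replicate 5 reached the lower rounded arrays. The difference was -1.0 ± 0.27 (SE; 95% interval -1.57 to -0.43). TNC, tenascin C, of the same class, was 3.8, 3.6, 4.9, 3.8 and 4.7 in rounded and 3.0, 3.5, 3.3, 3.5 and 4.2 in columnar follicles (difference -0.66 ± 0.28 SE). ITGAV, the integrin alpha V chain, which is not in that list, was 5.1, 4.6, 4.7, 4.5 and 4.5 in rounded and 4.1, 4.1, 4.1, 4.0 and 4.2 in columnar follicles. Its arrays did not overlap, and a second probe set, at 7.0 to 7.8 in rounded and 6.6 to 6.9 in columnar follicles, also did not, each with a difference of -0.58. The median over the 22 genes was -0.02, equal to that of all probe sets. The next largest difference was -0.20 for COL6A2, a chain of collagen VI, SPARC, a collagen-binding matricellular protein, differed by 0.02, and the collagen genes COL1A1, COL1A2 and COL3A1 differed by -0.06, 0.02 and 0.02.

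The genes of the basal lamina showed the smallest range of differences of the 17 lists. The groups were set by the shape of the granulosa cells, which earlier work relates to the form of the lamina. The form of the lamina itself is not given for these follicles. Of 25 listed genes 13 were on the array and all 13 were tested. Their differences ran from -0.20 to 0.08 with a median of -0.10, 9 lower and 3 higher, and 0 had an unadjusted p under 0.05. COL4A1, a chain of the type IV collagen network, was 11.6, 11.5, 11.8, 11.6 and 11.7 in rounded and 11.6, 11.7, 11.6, 11.6 and 11.7 in columnar follicles, with a difference of 0.00 and an interval of -0.17 to 0.17. The laminin chains LAMC1, LAMB1 and LAMB2 differed by -0.02, -0.10 and -0.10. NID1 and NID2, the nidogens that link laminin to collagen, differed by -0.14 and 0.08, and HSPG2, perlecan, by -0.12 ± 0.09 (SE). The 95% intervals excluded a 2-fold difference for all 13 genes and a 1.5-fold difference for 9 of them. A 1.5-fold difference was not excluded for the type IV collagen chains COL4A3 (-0.84 to 0.44) and COL4A4 (-0.75 to 0.47). Nor was it for the collagen genes COL15A1 (-0.60 to 0.36) and COL18A1 (-0.55 to 0.71). The theca is one of the tissues beside the lamina, and the granulosa cells, which make many of its components, were not measured here.

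Receptors and enzymes that act on the lamina were also close to 0. The 12 tested genes had a median of -0.07. The lowest was SERPINE2, protease nexin 1, a protease inhibitor also made by granulosa cells, at -0.42 ± 0.24 (SE), with 10.3, 10, 10.4, 10.2 and 9.4 in rounded and 9.9, 10.1, 9.5, 9.7 and 9.0 in columnar follicles. MMP2, a gelatinase, differed by -0.14 ± 0.14 (SE) and MMP14, its membrane-bound activator, by 0.08 ± 0.09 (SE). The interval excluded a 2-fold difference for 11 of the 12.

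Steroidogenic genes overlapped between the follicle forms, and several varied more within a group than between the groups. The 15 tested genes had a median of 0.08 and a range of -0.28 to 0.46. CYP11A1, the side-chain cleavage enzyme, differed by 0.22 ± 0.20 (SE) and HSD3B1, which makes progesterone, by 0.22 ± 0.23 (SE). CYP17A1, which makes androgens, was 7.6, 7.0, 7.1, 8.6 and 5.2 in rounded and 8.0, 6.4, 7.6, 8.2 and 7.6 in columnar follicles. Its interval of -0.85 to 1.77 did not exclude a 2-fold difference, nor did that of STAR, the cholesterol transporter of the mitochondria (-1.50 to 1.94), or that of NR4A1, an orphan nuclear receptor (-1.16 to 0.88). For the other 12 genes of the list a 2-fold difference was excluded, among them the regulators NR5A1 (-0.10 ± 0.18 SE), GATA4 (-0.04 ± 0.08 SE) and GATA6 (-0.20 ± 0.17 SE).

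**Figure D3:**
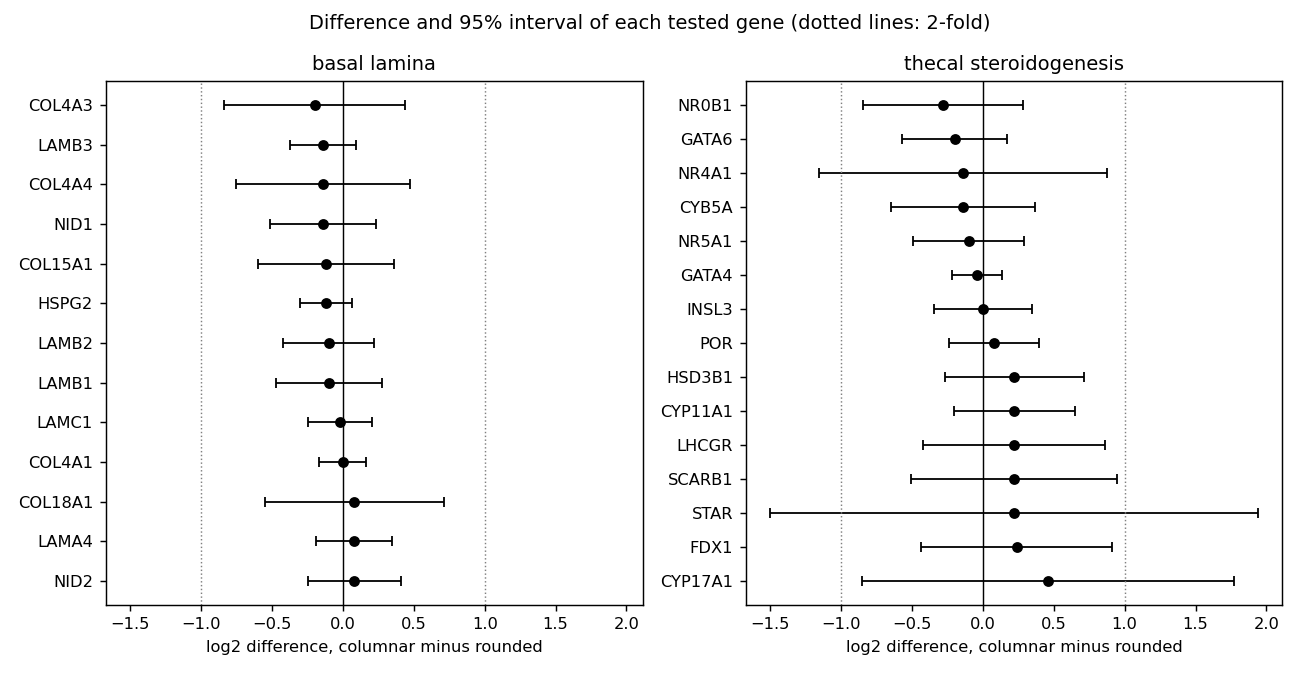
The log2 difference between columnar and rounded follicles with its 95% interval (x axis) for each tested gene of the basal lamina (left) and of thecal steroidogenesis (right). All 13 intervals of the basal lamina lie between the dotted 2-fold lines, and those of STAR, CYP17A1 and NR4A1 cross one.

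Among the lists, 3 had a median away from that of all probe sets by more than 0.2. Genes of macrophages and other immune cells had a median of -0.36, with 12 of 13 lower in columnar follicles. CD68, a lysosomal protein of macrophages, was 5.6, 3.9, 4.3, 3.4 and 4.6 in rounded and 3.1, 3.4, 4.3, 4.0 and 3.0 in columnar follicles. C1QC, a chain of complement C1q, was 5.8, 5.2, 5.8, 4.9 and 5.8 in rounded and 4.3, 5.2, 5.4, 5.0 and 4.5 in columnar follicles, and was the 1 gene of the list with an unadjusted p under 0.05 (difference -0.62 ± 0.25 SE, 95% interval -1.15 to -0.09). The mean of the 13 genes was 5.15, 4.48, 5.10, 4.33 and 5.02 in rounded and 3.94, 4.69, 4.78, 4.55 and 4.27 in columnar follicles. Rounded replicates 2 and 4 lay within the columnar range, so the groups overlapped. Of 20 listed genes on the array 7 were not tested, among them the lymphocyte genes CD2, CD3D, CD4, CD8A and CD79A.

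Cell cycle and replication genes were on the opposite side, with 28 of 29 higher in columnar follicles and a median of 0.36. BUB1, a kinase of the spindle checkpoint, had the largest difference of the list, 0.58 ± 0.51 (SE), with 5.0, 7.2, 4.6, 5.7 and 5.9 in rounded and 6.7, 5.9, 6.7, 4.8 and 7.2 in columnar follicles. The mean of the 29 genes was 5.86, 7.39, 6.12, 6.33 and 7.52 in rounded and 7.24, 7.35, 7.02, 5.82 and 7.49 in columnar follicles. Columnar replicate 4 had the lowest mean of the 10 arrays and rounded replicate 5 the highest, so that the difference rested on the other 4 columnar arrays and on rounded replicates 1, 3 and 4. These genes move together from array to array, and the 28 are not separate observations. In no gene of the list was the unadjusted p under 0.05.

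Cholesterol synthesis and uptake was the last of the 3, with a median of 0.34 and 10 of 12 genes higher. SQLE, squalene epoxidase, was 7.0, 7.1, 5.7, 8.2 and 6.9 in rounded and 8.3, 6.8, 7.0, 8.3 and 7.6 in columnar follicles (difference 0.62 ± 0.60 SE). HMGCS1, which makes HMG-CoA, was 8.3, 8.4, 7.1, 9.3 and 7.2 in rounded and 9.6, 7.7, 8.4, 9.3 and 8.3 in columnar follicles (difference 0.60 ± 0.64 SE). The mean of the 12 genes was 7.20 both in rounded replicate 4 and in columnar replicate 4, the highest of each group. The interval excluded a 2-fold difference for 6 of the 12 genes, and a 1.5-fold difference for 1.

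**Figure D4:**
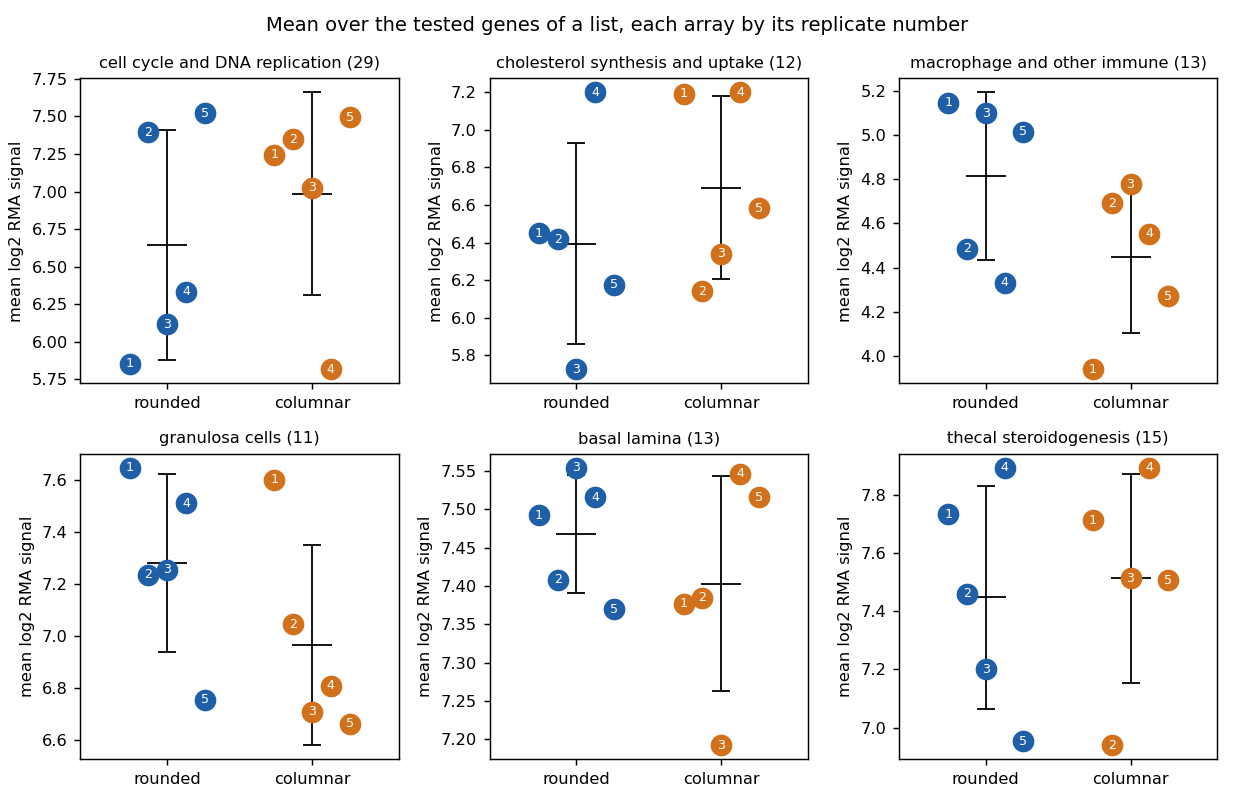
Mean log2 RMA signal (y axis) over the tested genes of 6 lists, with the number of genes in brackets, in each array, numbered by replicate, with group mean and SD as bars. The groups overlap in every panel, and in the cell cycle panel columnar replicate 4 lies at 5.82, apart from the other 4 columnar arrays at 7.02 to 7.49.

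The other lists stayed near the median of all probe sets. Paracrine signals between theca and granulosa cells had a median of -0.06 over 23 genes, and the interval excluded a 2-fold difference for all 23. The growth factor receptors EGFR and FGFR1 differed by -0.32 ± 0.18 (SE) and -0.28 ± 0.15 (SE). Wnt genes had a median of -0.01 over 14 genes. SFRP4, a secreted Wnt antagonist, was 3.3, 3.5, 3.3, 4.4 and 4.1 in rounded and 2.4, 3.0, 2.9, 4.2 and 2.8 in columnar follicles, and TCF7L2, a nuclear effector of Wnt signals, differed by -0.28 ± 0.11 (SE; 95% interval -0.52 to -0.04). Junction and adhesion genes had a median of -0.10 over 15 genes, CDH2 apart with differences between -0.46 and 0.16. Interferon-stimulated genes had a median of 0.15 over 16 genes, and immediate early and heat shock genes one of -0.08 over 22. Of 10 epithelial genes on the array 3 were tested, and KRT18, a keratin, was 7.5 in rounded replicate 5 and 4.9 to 5.3 in the other rounded follicles.

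**Figure D5:**
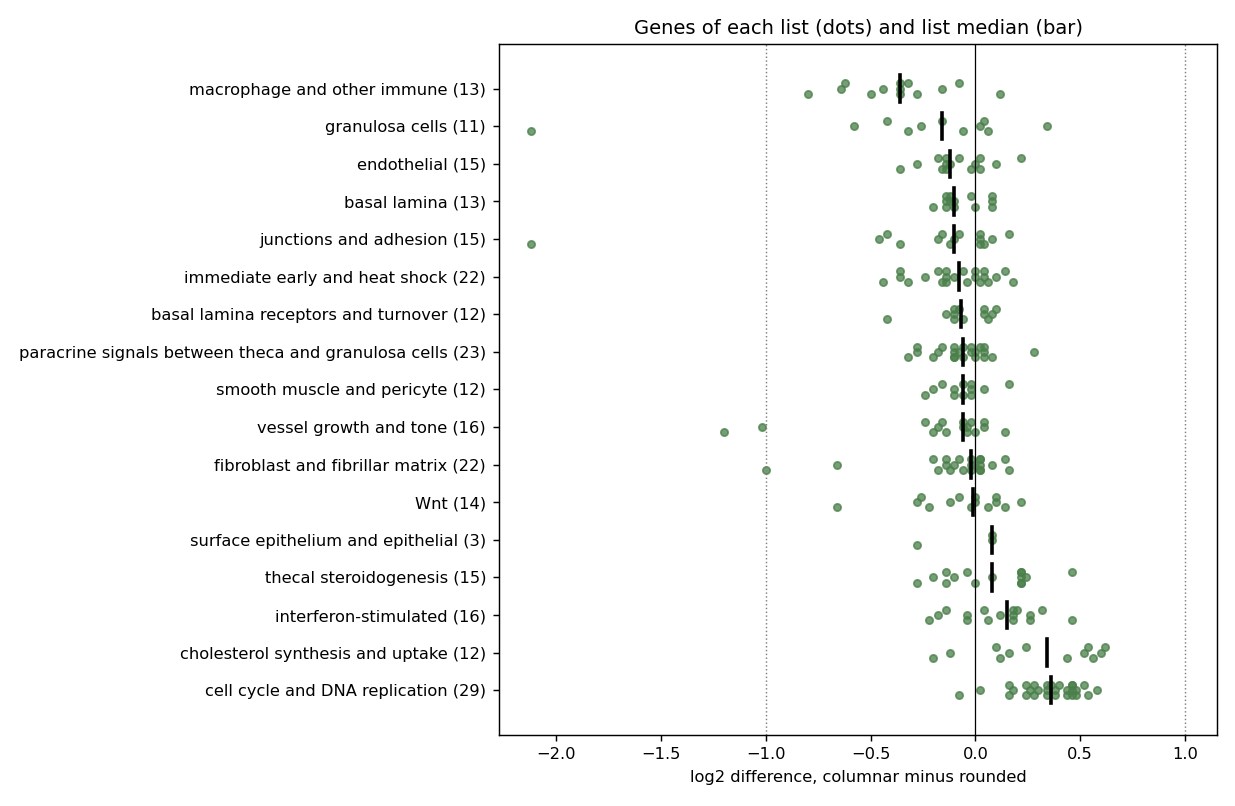
The log2 difference between columnar and rounded follicles (x axis) of each tested gene (dots) and the median (bar) for 17 lists, with the number of genes in brackets and dotted lines at 2-fold. Medians run from -0.36 for macrophage and other immune genes to 0.36 for cell cycle genes, and the dots at or beyond the left dotted line are CDH2, which is in 2 lists, ANGPT2, ADM and POSTN.

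Higher signals in columnar follicles were few and small. The 1 probe set with a 2-fold higher mean, at a difference of 1.48, has no gene symbol in the annotation. Its signal was 3.0, 5.3, 6.4, 4.3 and 2.6 in rounded and 4.0, 7.3, 6.1, 4.8 and 6.8 in columnar follicles, with overlap and a 95% interval of -0.14 to 3.10. The largest difference of a named gene was 0.98 ± 1.14 (SE) for LOC767968, an uncharacterised gene, with 7.4, 6.5, 4.1, 8.5 and 4.3 in rounded and 9.0, 4.0, 6.3, 8.3 and 8.1 in columnar follicles. FABP3, a fatty acid binding protein, followed with 0.76 ± 0.58 (SE), and then ASIP, the agouti signalling protein, with 0.66 ± 0.66 (SE) and RGN, regucalcin, with 0.66 ± 0.91 (SE). ASIP was 6.8 to 8.2 in 4 rounded follicles, 3.5 in rounded replicate 5 and 6.9 to 8.1 in columnar follicles. AQP11, a water channel, had the largest difference among the 5 higher genes with the smallest p, with 3.6, 3.7, 3.8, 4.0 and 3.4 in rounded and 4.4, 4.5, 3.8, 3.7 and 4.6 in columnar follicles (0.50 ± 0.18 SE, 95% interval 0.11 to 0.89).

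The arrays of the groups did not overlap for 26 probe sets, 18 (0.119%) lower and 8 (0.053%) higher in columnar follicles. Ties aside, random group labels would separate the arrays fully, in either direction, in a fraction of 0.0079 of the 252 splits. Both shares found here together were below that, so the absence of overlap is not by itself a sign of a difference. Of the 18, 5 had a difference of at least 1.5-fold, which were both probe sets of VNN1 and those of CHD1, CTTNBP2NL and EGLN1. CTTNBP2NL, a cortactin-binding scaffold protein, was 4.8, 5.2, 5.1, 4.1 and 4.2 in rounded and 3.8 to 3.9 in columnar follicles. TPM1, tropomyosin 1, was at 5.8 to 6.3 in rounded and 5.3 to 5.7 in columnar follicles, and its brighter probe set differed by -0.18. The 8 higher ones differed by 0.18 to 0.36, and FMO5, a monooxygenase among them at 0.26, had 3 other probe sets, with differences of 0.06, -0.18 and 0.00. Some of the 8, near log2 3, passed the detection rule through the columnar arrays alone. The second probe set of VNN1 passed it through the rounded arrays alone.

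Over all tested probe sets the form of the follicle held 8.53% of the variance of the 10 arrays (exact permutation test over 252 splits, one-sided p = 0.611). Without rounded replicate 5 this share was 16.5% (exact p = 0.183), and without columnar replicate 4 it was 14.4% (exact p = 0.254). The first principal component held 45.9% of the variance, and its scores were -32.8, 11, -24.7, -18.8 and 38.9 in rounded and 11.5, 18.8, 3.30, -30.9 and 23.7 in columnar follicles (exact two-sided p = 0.484, adjusted over 9 measures p = 0.653). Rounded replicates 1, 3 and 4 and columnar replicate 4, the 4 arrays with negative scores, were also the 4 arrays with the lowest mean of the cell cycle list. The correlation of 2 arrays over the tested probe sets was 0.938 to 0.980 within rounded, 0.960 to 0.986 within columnar and 0.941 to 0.992 between the groups. Probe sets are not independent, and these correlations describe the arrays only. The median SD over probe sets was 0.219 in rounded and 0.192 in columnar follicles (exact two-sided permutation p = 0.294).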

How the data were processed

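Each sample was 1 single-channel Affymetrix bovine array of theca interna RNA. The values are log2 signals that the authors obtained by RMA, which includes quantile normalization, with Partek (version 6.5 per the submitters' processing notes) and deposited to 1 decimal. The sources used here do not say whether the 19 arrays were normalized in 1 run. Sample titles gave the group and the replicate number. The members of the comparison and the gene lists were chosen with earlier results of these data known.

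Signals were fitted with limma 3.58.1 in R 4.3.3 over 14 healthy arrays (5 rounded, 5 columnar, 4 large), which share 1 estimate of the spread. The contrast was columnar minus rounded. A call needed a Benjamini-Hochberg adjusted p, over 15106 probe sets, under 0.05 together with a 2-fold difference. No array or value was dropped or imputed. Steps were tested on simulated data. The number of arrays sets the precision.

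The platform annotation gives 1 gene symbol to 13317 of 24127 probe sets, several to 86 and none to 10724. For 13282 the symbol was found in a newer gene table, and 0 had changed. Lists use the brightest tested probe set of a gene. Genes were named by a rule: the 10 with the largest difference in each direction, the 5 with the smallest p in each, those at least 1.5-fold apart without overlap, all tested genes of the basal lamina and steroidogenic lists, for each other list those with an unadjusted p under 0.05 or 2-fold (or the 3 with the smallest p), and the reference and granulosa genes GAPDH, PPIA, CYP19A1, FSHR, INHBA and FST. Other genes were named after their values were seen: SRGN, GPNMB, CLGN, HOPX, RBM5, NMB, TRIM2, TPM1, SPARC, CD68, VEGFA, HIF1A, TEK, PECAM1, COL1A1, COL1A2 and COL3A1.

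Alternatives were other filters, a second quantile normalization, other fits and sets of arrays, array weights, a replicate block and each array left out. The sources used here do not say whether replicate numbers pair the follicles, and the main fit did not pair them. The deviations of same-numbered arrays correlated at 0.02, 0.05, -0.04, 0.58 and 0.47. For rounded replicates 4 and 5 the same-numbered columnar array was the closest one, and for replicates 1, 2 and 3 it was not. These values cannot settle whether follicles shared an animal.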

Additional observations from a re-analysis of the deposited data

Results flagged for a closer look

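In groups of 5 arrays, 222 sets of 5 values were checked for 1 value far from the other 4 by Dixon's test, and 14 were found, where chance gives about 1 in 20. Rounded replicate 5 was far from the others for UPK1B (3.5, against 6.0 to 6.3) and KRT18 (7.5, against 4.9 to 5.3). Rounded replicate 4 was far from them for SCARB1, a lipoprotein receptor (9.9, against 8.5 to 8.9), and SREBF2, a regulator of sterol genes (6.5, against 5.6 to 5.8). Columnar replicate 4 stood apart for CDCA2 (4.3, against 6.0 to 6.5) and AURKB (5.6, against 6.7 to 7.0), both genes of cell division, and for MMP14 (3.3, against 3.4), where the gap is 1 rounding step. Columnar replicate 2 stood apart for CYP11A1 (10.1, against 10.4 to 10.5), LHCGR, the receptor for LH (2.8, against 4.0 to 4.3), the number of probe sets over log2 3 (14784, against 14853 to 14866) and the second principal component (21.0, against -11.3 to -4.02). Columnar replicate 1 was high for INHBA (9.1, against 6.8 to 7.3) and columnar replicate 5 low for EGLN1 (3.8, against 4.2 to 4.3). The median log2 signal of rounded replicate 1 was 3.9, against 3.8, again 1 rounding step.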

How the results depend on the processing

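In all 26 alternatives 0 probe sets were called, and the smallest adjusted p ran from 0.203 (without rounded replicate 5) to 1. The 352 probe sets at an unadjusted p under 0.05 became 1511 with array quality weights and 1081 with no filter on low signals (359 lower and 722 higher), and 168 to 841 with 1 array left out, the most without rounded replicate 5 (632 lower, 209 higher), 739 without columnar replicate 4, 220 without columnar replicate 5 and 168 without rounded replicate 1. The 28 probe sets at 2-fold became 8, all 8 lower, when a signal over log2 3 was required on all 10 arrays, and the 26 without overlap became 95 with no filter, 46 after a second quantile normalization and 26 to 135 with 1 array left out, where fewer arrays overlap less by construction. With array quality weights 36 were 2-fold lower and 5 higher. With the replicate number as a block, 0 were called and 356 lower and 86 higher had an unadjusted p under 0.05. The share of variance was 7.07% to 16.5% with 1 array left out (exact p of 0.183 or more). Of 102 named genes 18 changed sign under an alternative and 0 moved by more than 1 SD, and of the 20 with the largest differences 1, ASIP, changed sign. The cause of these changes was not tested. Signals near log2 3 set the limit of detection.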
